A study of Mus musculus with 12 samples.

Results

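The acinar digestive enzymes are the proteins that the exocrine pancreas secretes into the gut, and 10 of their genes were chosen by name: Cpa1, Cpb1, Cela1, Cela2a, Cela3b, Pnlip, Pnliprp1, Pnliprp2, Cel and Zg16. Each gene was read from the probe set that the platform annotation assigns to that symbol alone, and 9 of the 10 genes had such a probe set, among 30142 genes in all. Pnlip was not analysed here. The data are 12 one-colour arrays, 1 for each of 12 pancreas tumours from separate mice, with 3 tumours in each of 4 groups. All animals carried the PKT genotype. PKT is known as a mouse model of pancreatic cancer in which a Cre recombinase expressed from the Ptf1a locus acts in the pancreatic epithelium. The groups were PKT; FAP depleted, PKT; FAP-TK control with no depletion, PKT; aSMA depleted and PKT; aSMA-TK control with no depletion. TK is a viral thymidine kinase, and ganciclovir kills dividing cells that express it. The names FAP-TK and aSMA-TK stand for transgenes meant to be active in cells that express Fap (fibroblast activation protein) or Acta2 (alpha smooth muscle actin), which in a tumour are mostly stromal. Ganciclovir at 50 ug per kg is listed for every sample, so whether the controls received it is unclear. The labels give neither the animals' ages nor the time of sampling.

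Acinar cells make up most of the normal pancreas and store their enzymes in zymogen granules, from which they are released after a meal. The genes are switched on together by PTF1, a complex of the transcription factors PTF1A and RBPJL with a common basic helix-loop-helix partner, and by NR5A2, BHLHA15 (MIST1) and GATA factors. During pancreatic tumorigenesis, acinar cells can lose this programme and take on duct-like features. Cpa1 and Cpb1 encode carboxypeptidases, which trim single residues from the C-terminal end of peptides. Cela1, Cela2a and Cela3b encode serine proteases of the elastase family. Cel encodes the bile-salt-activated lipase, and Pnliprp1 and Pnliprp2 encode relatives of pancreatic lipase. Zg16 encodes a lectin of the zymogen granule membrane, which is not an enzyme and is also made by goblet cells of the gut.

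The 9 genes lie on 7 mouse chromosomes, with Pnliprp1 and Pnliprp2 both on chromosome 19 and Cela2a and Cela3b both on chromosome 4. A promoter from RefSeq (GRCm38.p6) was at hand for 8 of the 9 measured genes, all but Zg16. The 250 bases before the start were searched on both strands for CANNTG, the E-box that helix-loop-helix factors bind, and TGGGAA, the core that RBPJ-type factors bind. CANNTG was present in 8 of 8 promoters, against 66.2% of 32851 mouse promoters of the same length. TGGGAA was present in 4 of 8, against 21.6%, and the same 4 genes (Cpa1, Cela2a, Pnliprp1 and Cel) had a CANNTG within 30 bases of it without overlap, against 5.72%. These matches describe letters and show no binding. The 120 bases next to the start are shown for these 4 genes, because they hold both strings close together, and for Pnliprp2, whose tumour-by-tumour pattern departed most from the others. Capitals mark CANNTG and TGGGAA. The stretches lie at chr6:30639098-30639217 on the plus strand (Cpa1), chr4:141826006-141826125 on the minus strand (Cela2a), chr19:58728767-58728886 on the plus strand (Pnliprp1), chr2:28563404-28563523 on the minus strand (Cel) and chr19:58759603-58759722 on the plus strand (Pnliprp2), each printed 5′ to 3′ along the gene.
Cpa1: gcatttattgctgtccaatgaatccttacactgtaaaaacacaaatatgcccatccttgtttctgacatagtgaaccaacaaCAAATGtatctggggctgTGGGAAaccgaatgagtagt
Cela2a: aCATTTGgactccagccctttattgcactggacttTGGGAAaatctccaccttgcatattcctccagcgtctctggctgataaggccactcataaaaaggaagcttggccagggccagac
Pnliprp1: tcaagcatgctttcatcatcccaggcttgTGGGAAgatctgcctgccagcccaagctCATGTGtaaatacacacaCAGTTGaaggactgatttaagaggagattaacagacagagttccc
Cel: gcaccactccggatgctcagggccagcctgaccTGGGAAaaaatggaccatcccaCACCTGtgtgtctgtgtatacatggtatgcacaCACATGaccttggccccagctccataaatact
Pnliprp2: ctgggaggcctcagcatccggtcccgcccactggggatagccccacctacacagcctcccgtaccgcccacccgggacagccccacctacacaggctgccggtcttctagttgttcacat
In the Cpa1 stretch the 2 strings are 12 bases apart, and in the Cel stretch 16 bases. The Pnliprp2 stretch holds neither string, but its 250 bases hold a CANNTG that begins 228 bases before the start. TGGGAA was also absent from the 250 bases of Cpb1, Cela1 and Cela3b, so its absence is not particular to Pnliprp2. A link between these strings and the pattern over the tumours was not tested.

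Values are log2 intensities after quantile normalization between arrays, and differences are on the same scale. The range of the deposited log2 values is wider than a scanner records, so differences are not turned into folds. Levels of different genes are not compared, because each probe set has its own brightness. On 3 arrays, FAP depleted replicate 2 and FAP-TK control replicates 1 and 3, the positive controls stood only 2.69, 2.97 and 2.99 log2 units above the negative controls, against 4.32 to 4.89 on the other 9. Fap was lower in the FAP depleted tumours (5.52, 5.34 and 6.21) than in the FAP-TK controls (6.56, 7.31 and 6.53), without overlap (-1.11 ± 0.37, adjusted p = 1, limma). Among all genes 2.5% were separated in this direction. The Fap probe set was above the 95th percentile of the negative controls on 0 arrays, so these Fap levels lie near background. Acta2 was at 10.13, 13.86 and 15.28 in the tumours labelled aSMA depleted and at 12.26, 10.85 and 11.12 in the aSMA-TK controls. It was therefore not lower on average in the tumours whose label names its loss, which are called the tumours labelled aSMA depleted below. Whole tumours were measured, so fewer acinar cells and less RNA per acinar cell cannot be told apart.

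The probe sets were bright in some tumours and near background in others. Against the 95th percentile of the negative controls on the same array, a strict mark of 8.21 to 11.29 deposited log2 units, Pnliprp2 was above on 11 arrays, Pnliprp1 on 9, Cpa1 and Cel on 7 each, Cela1 on 5 and Cpb1 on 4. Zg16 was above it on 2 arrays and Cela2a and Cela3b on 1 each. Against the 95th percentile of 23 antigenomic background probe sets, between 4.56 and 5.82, Cpa1, Cela1, Pnliprp1, Pnliprp2 and Cel were above on 12 of 12 arrays, Cpb1 on 10, Zg16 on 9, Cela3b on 8 and Cela2a on 5. In the FAP-TK controls Cela2a, Cela3b and Zg16 were above neither mark on any of the 3 arrays, so their level there is only an upper bound and a difference against it may be understated.

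These genes were among the most variable on the array. Their SD over the 12 tumours had a median of 2.03 log2 units, against 0.29 over all genes, and each ranked within the top 1.65% of all 30142 genes. Cpa1 spanned 10.89 log2 units, from 5.12 to 16.02, Cel 10.18 and Pnliprp1 10.01, while Cela3b spanned 4.62 and Pnliprp2 4.84. For all but Cela2a and Zg16, more of this variation lay between tumours of the same group than between groups. The share of a gene's sum of squares found within groups was 83.4% for Cel, 83.3% for Cela1, 81.2% for Pnliprp1, 71.0% for both carboxypeptidase genes, 60.7% for Pnliprp2, 55.8% for Cela3b and 44.3% for Cela2a. It was lowest for Zg16, at 32.6%. With 12 tumours in 4 groups, most of a gene's sum of squares is expected within groups even where group plays no part. These shares alone therefore do not show how much group matters.

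**Figure D1:**
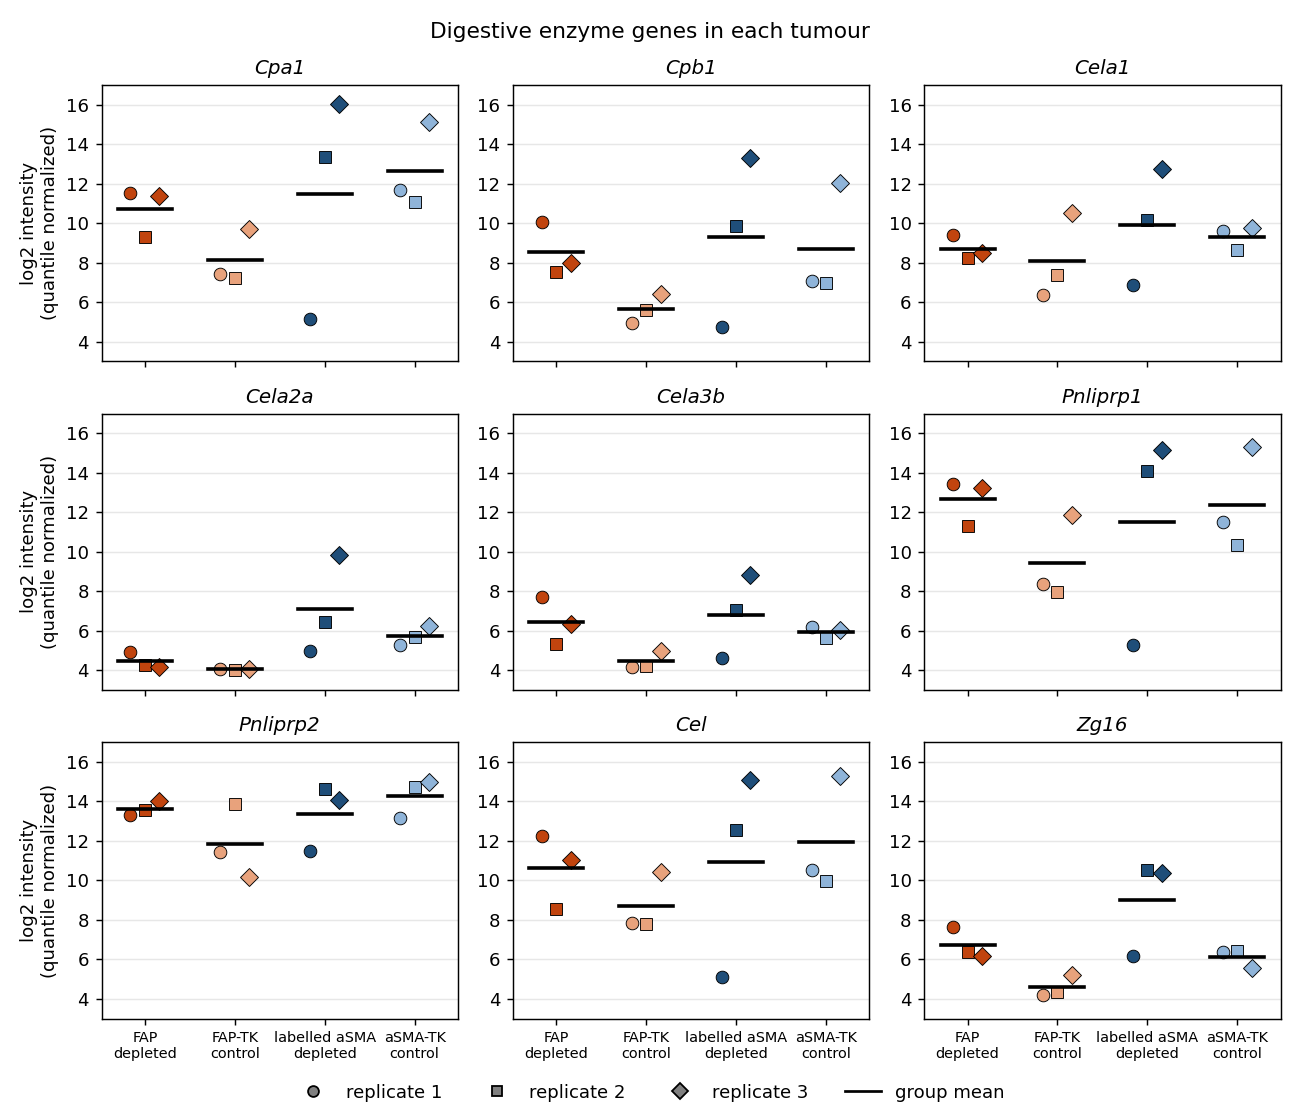
Log2 intensity (quantile normalized, vertical axis) of the 9 measured genes in each of 12 tumours, by group (horizontal axis); symbols mark the replicate and bars the group mean of 3 tumours. Within the tumours labelled aSMA depleted, Cpa1 ran from 5.12 to 16.02, a wider span than any difference between group means.

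The highest and the lowest mean over the 9 genes came from 2 tumours of the same group. Replicate 3 of the tumours labelled aSMA depleted had the highest value of all 12 tumours for 5 of the 9 genes and ranked between 1 and 4 for every gene. Replicate 1 of that group had the lowest value for 4 genes (Cpa1, Cpb1, Pnliprp1 and Cel). The mean over the 9 genes was 12.83 in the first of these tumours and 6.04 in the second. Other tumours held extremes as well. The aSMA-TK control replicate 3 was the highest tumour for 3 genes (Pnliprp1, Pnliprp2 and Cel). FAP-TK control replicate 1 was the lowest tumour for 3 genes (Cela1, Cela3b and Zg16). It was among the 3 lowest for 9 of 9, against 7 for labelled replicate 1. No tumour of the FAP line had the highest value of any of the 9 genes.

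The comparison within the FAP line asks how the acinar genes stand in tumours labelled as depleted of FAP-positive cells. The words depleted and after depletion follow that label, because Fap lay near background and does not show how many cells were removed. All 9 measured genes had a higher mean in the FAP depleted tumours than in the FAP-TK controls, by 0.40 (Cela2a) to 3.25 (Pnliprp1) and by a median of 2.01 log2 units, against a median of 0.04 over all genes. Among all genes 59.9% had a difference above 0. For Cpb1, Cela2a, Cela3b and Zg16, all depleted tumours lay above all controls. That is 4 of 9, where 5.60% of all genes were separated in this direction. None of the 9 genes passed limma's test (adjusted p = 1 for each), as 0 of all genes did (0% called). At an unadjusted p under 0.05 the count was 0 of 9, against 3.71% of all genes.

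Of the carboxypeptidase genes, 1 was separated between the groups. Cpb1, whose product removes basic residues, was at 10.06, 7.53 and 7.98 in the FAP depleted tumours and at 4.94, 5.60 and 6.41 in the FAP-TK controls. All depleted tumours were above all controls, and the difference was 2.87 ± 2.00 (SE, 3 tumours a group). The two-sided exact permutation p of 0.1 is the smallest that 3 tumours against 3 can give. Cpa1, whose product removes other C-terminal residues, was at 11.54, 9.32 and 11.37 in the depleted tumours and at 7.40, 7.22 and 9.71 in the controls. Here the groups overlapped, because the lowest depleted tumour (replicate 2) was below the highest control (replicate 3), and the difference was 2.64 ± 2.36 (exact permutation p = 0.2).

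Of the elastase genes, Cela3b differed most. It was at 7.70, 5.33 and 6.35 in the FAP depleted tumours and at 4.18, 4.19 and 4.98 in the FAP-TK controls, without overlap, a difference of 2.01 ± 0.92 with a 95% interval of -0.06 to 4.07. Cela2a was also separated but by little: the depleted tumours had 4.90, 4.29 and 4.17, against 4.06, 4.03 and 4.08 for the controls. All 6 values were below both background marks on their arrays, so this separation of 0.40 ± 0.96 is between levels at background. Cela1 overlapped, with 9.40, 8.22 and 8.47 after depletion, against 6.37, 7.36 and 10.50 for the controls. One control tumour, replicate 3, was above all depleted tumours, and the difference of 0.62 ± 1.40 turned to -0.23 when FAP-TK control replicate 1 was left out.

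Among the lipase genes, Pnliprp1 had the largest difference of the 9. Its product is known for having little lipase activity of its own. It was at 13.42, 11.29 and 13.25 in the FAP depleted tumours and at 8.38, 7.96 and 11.88 in the FAP-TK controls, a difference of 3.25 ± 2.40 (exact permutation p = 0.2). Depleted replicate 2 lay below control replicate 3, so the groups overlapped. Cel, whose product splits cholesteryl and other esters in the presence of bile salts, was at 12.25, 8.54 and 11.05 in the depleted tumours and at 7.87, 7.80 and 10.42 in the controls. It overlapped through the same pair of tumours, with a difference of 1.92 ± 2.38. Pnliprp2, which acts on galactolipids and phospholipids as well as triglycerides, was at 13.29, 13.59 and 14.04 in the depleted tumours and at 11.45, 13.89 and 10.16 in the controls. The controls were out of step with the other genes: replicate 2, the lowest control for Cpa1, Pnliprp1 and Cel, was the highest for Pnliprp2. Without that tumour the Pnliprp2 difference of 1.81 ± 1.02 was 2.83, and without FAP-TK control replicate 3 it was 0.97.

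Zg16, the granule lectin, was at 7.66, 6.39 and 6.17 in the FAP depleted tumours and at 4.21, 4.34 and 5.22 in the FAP-TK controls. The groups did not overlap, and the difference was 2.15 ± 1.01 (95% interval -0.11 to 4.40). Of the goblet cell markers, 3 of 5 were higher and 2 lower in the depleted tumours, with a median difference of 0.02. Their mean level ranged over 7.61 to 8.17 in the depleted tumours, against 7.51 to 10.72 in the controls, and Muc2 was not measured.

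**Figure D2:**
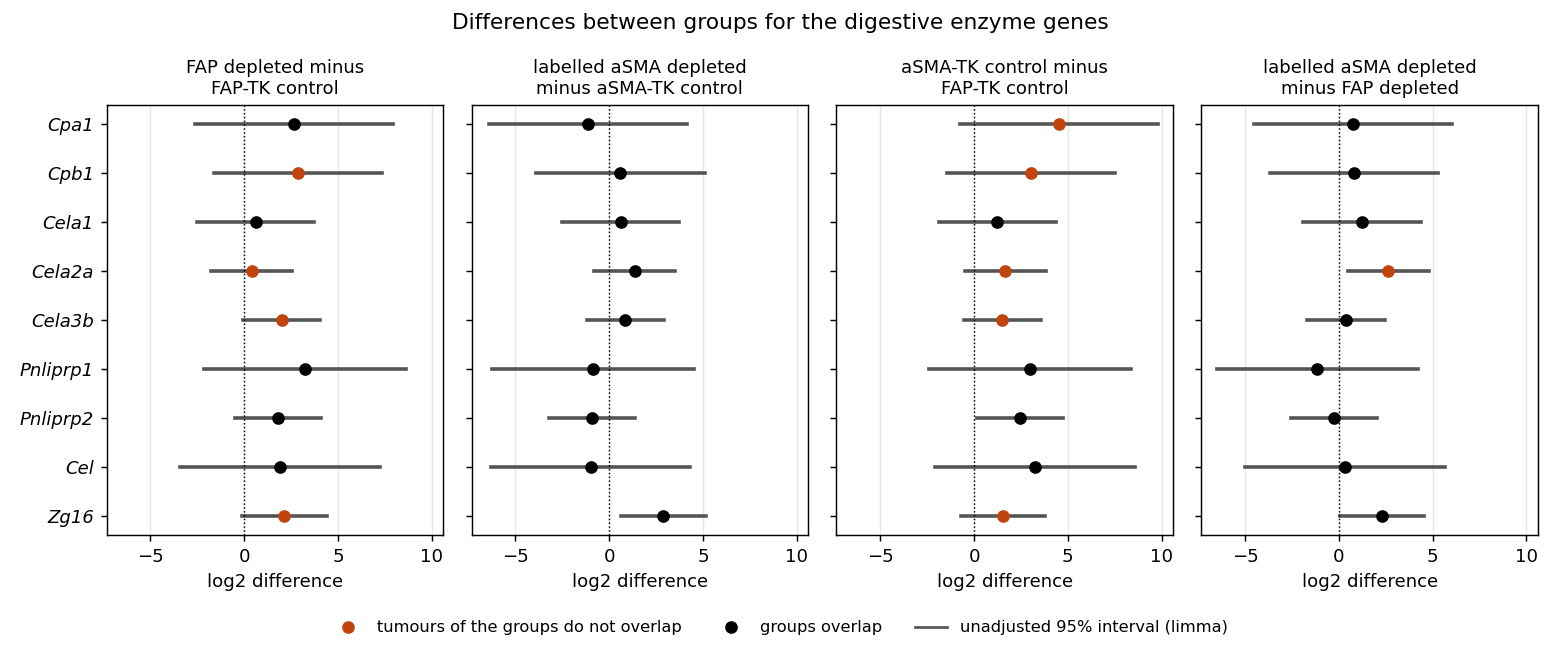
Log2 difference (horizontal axis) of each gene (vertical axis) in 4 comparisons, with unadjusted 95% intervals from limma (n = 3 per group); red points mark genes whose 2 groups of tumours do not overlap. In the FAP comparison all 9 points lie above 0 and in the aSMA comparison 5 of 9 do.

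The 3 arrays of low control separation all belong to the FAP line. Leaving them out sets FAP depleted replicates 1 and 3 against FAP-TK control replicate 2 alone, and the median difference of the 9 genes was then 2.83, with 8 of 9 higher. Pnliprp2 was the exception, at -0.22. With 1 tumour left out at a time, the median stayed between 1.69 and 2.57, and 9 of 9 genes were higher except without FAP-TK control replicate 1, where Cela1 turned and 8 were.

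Markers of other cells also differed between these groups. Of 11 duct markers, 10 were higher in the FAP depleted tumours, by a median of 0.90. Their mean level was 14.08, 12.88 and 14.27 after depletion, against 12.70, 13.43 and 12.83 in the FAP-TK controls. The lowest of these, 12.88, 12.70 and 12.83, were on the 3 arrays of low control separation, depleted replicate 2 and control replicates 1 and 3. These arrays are unequally shared between the groups, and their part in the marker differences was not tested. All 9 fibroblast markers were lower, by a median of -0.92, with a mean level of 9.92, 7.54 and 10.02 after depletion, against 8.99, 10.80 and 10.43 in the controls. The lowest of these, 7.54 and 8.99, were also on arrays of low separation, while control replicate 3, another such array, was at 10.43. In every comparison the fibroblast list includes Fap and Acta2, whose levels are given above, so its counts are not separate from them. Of 8 leukocyte markers 7 were lower (median -0.41) and all 7 islet markers were higher (median 0.30). No islet marker was above the strict negative-control mark on any array of these groups, so the islet difference is between levels near background. The levels were also summed after undoing the log2, as a description that the brightest probe sets dominate (Muc1, a duct marker, averaged 19.24 on the log2 scale). The summed duct level was 726000 to 1940000 after depletion, against 521000 to 1330000 in the controls. The summed fibroblast level was 5160 to 50400 after depletion, against 32800 to 48800 in the controls. For leukocyte markers it was 860 to 7350 after depletion, against 879 to 15400 in the controls, and for islet markers 345 to 758 after depletion, against 186 to 617 in the controls. No marker of these lists passed the test, and their part in the result was not tested.

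In the aSMA line the same genes showed no common direction. Between the tumours labelled aSMA depleted and the aSMA-TK controls, 5 of 9 genes had a higher mean and 4 a lower one, where 53.2% of all genes had a difference above 0. The differences ran from -1.12 (Cpa1) to 2.89 (Zg16) with a median of 0.60, against 0.01 over all genes. For none of the 9 were the groups separated, where 12.5% of all genes were separated in either direction and 7.43% upward. None passed limma's test (adjusted p from 0.944 to 0.982), as 0 of all genes did (0% called). At an unadjusted p under 0.05 the count was 1 of 9, Zg16, against 4.81% of all genes.

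The spread among the tumours labelled aSMA depleted was the main feature. Cpa1 was at 5.12, 13.36 and 16.02 in these tumours and at 11.66, 11.06 and 15.13 in the aSMA-TK controls. One tumour lay below every control by a wide margin and another above every control, and the difference of -1.12 ± 2.36 has a 95% interval of -6.40 to 4.16. Cpb1 was at 4.74, 9.87 and 13.29 in the labelled tumours and at 7.09, 6.97 and 12.03 in the controls, a difference of 0.60 ± 2.00. Pnliprp1 was at 5.30, 14.08 and 15.15 in the labelled tumours and at 11.50, 10.32 and 15.31 in the controls, a difference of -0.87 ± 2.40. Cel followed the same order, with 5.13, 12.58 and 15.09 in the labelled tumours and 10.52, 9.95 and 15.31 in the controls (-0.99 ± 2.38). In these 4 genes replicate 1 was the low tumour and replicates 2 and 3 were high, and control replicate 3 stood above the other controls.

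The elastase genes repeated this split. Cela1 was at 6.85, 10.16 and 12.76 in the tumours labelled aSMA depleted and at 9.59, 8.62 and 9.74 in the aSMA-TK controls (0.61 ± 1.40). Cela2a was at 4.96, 6.43 and 9.86 in the labelled tumours and at 5.26, 5.67 and 6.23 in the controls (1.37 ± 0.96). Cela3b was at 4.60, 7.05 and 8.81 in the labelled tumours and at 6.21, 5.63 and 6.04 in the controls (0.86 ± 0.92). For all 3 genes replicate 1 was below every control while replicates 2 and 3 were above every control. Pnliprp2 varied less, with 11.47, 14.61 and 14.10 in the labelled tumours and 13.16, 14.71 and 15.00 in the controls (-0.90 ± 1.02).

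Zg16 had the largest difference of the 9 in this line. It was at 6.15, 10.54 and 10.37 in the tumours labelled aSMA depleted and at 6.39, 6.44 and 5.56 in the aSMA-TK controls. Labelled replicate 1 lay within the range of the controls, and the other labelled tumours were above every control. The difference of 2.89 ± 1.01 had an unadjusted p of 0.0171 in limma and an adjusted p of 0.944, and the exact permutation p was 0.3. Of the 5 goblet cell markers measured, 1 was higher and 4 lower (median -0.51). Their mean level was 7.62, 10.65 and 10.73 in the labelled tumours and 10.92, 11.33 and 10.69 in the controls.

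The direction in this line depended on which tumours were included. Without labelled replicate 1 all 9 genes were higher than in the controls, with a median difference of 2.15. Without labelled replicate 3 only 1 of 9 was higher, Zg16, and the median was -1.25. Without aSMA-TK control replicate 1 or 2 the median was -0.20 or -0.26, with 4 of 9 higher, and without control replicate 3 it was 0.82, with 8 of 9 higher. Cpa1 alone ranged from -3.38 to 2.07 over these settings. Control separation was 4.53, 4.32 and 4.89 on the labelled arrays, against 4.57, 4.47 and 4.60 on those of the aSMA-TK controls.

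Replicate 1 also stood apart in islet markers. The mean of 7 islet markers was 8.75 in that tumour, against 5.78 and 6.92 in the other tumours labelled aSMA depleted and 5.83, 5.73 and 7.02 in the aSMA-TK controls. The insulin gene Ins2 was at 9.46, 7.09 and 7.60 in the labelled tumours and at 6.93, 6.84 and 7.44 in the controls. The duct markers did not follow, with a mean of 13.87, 13.82 and 13.94 in the labelled tumours and 13.79, 13.66 and 14.21 in the controls. Fibroblast markers averaged 9.80, 10.55 and 11.57 in the labelled tumours and 10.05, 9.86 and 9.18 in the controls, with 9 of 9 higher and a median difference of 0.51. Leukocyte markers averaged 8.31, 8.17 and 6.95 in the labelled tumours and 7.58, 6.93 and 7.12 in the controls. The part of these markers in the result was not tested.

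**Figure D3:**
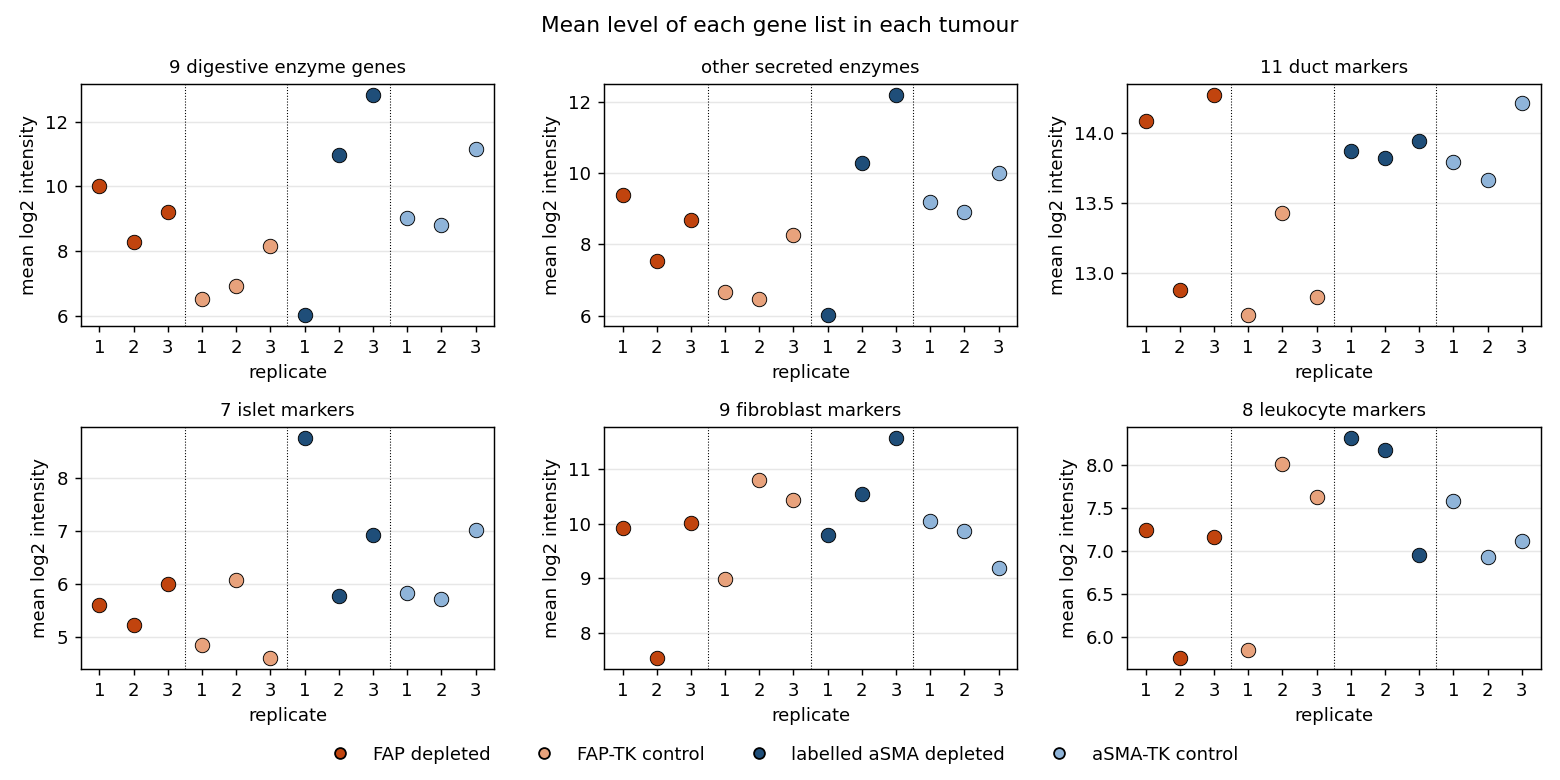
Mean log2 intensity (vertical axis) of the 9 digestive enzyme genes, 15 other secreted enzymes and 4 marker lists in each tumour (replicate 1 to 3 within each group, horizontal axis); each point is 1 tumour and the vertical scales differ. The enzyme lists are lowest in replicate 1 of the tumours labelled aSMA depleted (6.04 and 6.02), where the islet markers are highest (8.75).

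The depletion effects of the 2 lines were compared directly by the difference of effects, which is the aSMA difference minus the FAP difference. It was below 0 for 7 of 9 genes, with a median of -2.27, against -0.03 over all genes and 46.4% of all genes above 0. The largest were -4.12 ± 3.40 for Pnliprp1 and -3.75 ± 3.34 for Cpa1, and Cela2a (0.97 ± 1.36) and Zg16 (0.75 ± 1.43) were above 0. No gene passed (adjusted p from 0.839 to 0.999 for the 9 genes, and 0% of all genes called), and at an unadjusted p under 0.05 the count was 0 of 9, against 5.96% of all genes. Without replicate 1 of the tumours labelled aSMA depleted the median was -0.01. An unequal effect in the 2 lines was therefore not shown.

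The control tumours of the 2 lines also differed. All 9 genes had a higher mean in the aSMA-TK controls than in the FAP-TK controls, by 1.24 (Cela1) to 4.51 (Cpa1) and by a median of 2.46, where 58.2% of all genes had a difference above 0 and their median was 0.07. Cpa1, Cpb1, Cela2a, Cela3b and Zg16 were separated, 5 of 9, where 21.3% of all genes were. None of the 9 was among the 7.80% of genes called (adjusted p from 0.151 to 0.592, limma), and at an unadjusted p under 0.05 the count was 1 of 9, Pnliprp2, against 28.2% of all genes. Pnliprp2 had the smallest adjusted p, at 2.46 ± 1.02. It passed limma's test with array weights (3.31, adjusted p = 0.0244) and once FAP-TK control replicate 2 was dropped (3.48, adjusted p = 0.0463). Its difference was 0.40 when the 3 arrays of low separation were left out (adjusted p = 0.89). Cela2a passed without replicate 3 of the tumours labelled aSMA depleted, which enters only through the shared spread (1.66, adjusted p = 0.0409). The 9 genes stayed higher in the aSMA-TK controls under all 3 scalings. With values as deposited, where the median of all genes shifted to -0.39, the median of the 9 genes was 2.21 and 2 of 9 were separated. The negative controls had medians of 4.46 to 4.88 on the aSMA-line arrays, against 5.46 to 6.49 on the FAP-line arrays, and line and array background cannot be told apart. Markers of other cells differed too: duct markers were higher in the aSMA-TK controls for 10 of 11 (median 1.01, 2 called), goblet markers for 5 of 5 (1.69, 1 called) and islet markers for 7 of 7 (1.09), and fibroblast markers were lower for 7 of 9 (-0.66). The mean duct level was 12.70 and 12.83 on FAP-TK control replicates 1 and 3, which are arrays of low separation, against 13.43 on replicate 2. No islet marker was above the strict negative-control mark in any control tumour of either line, so the islet difference is between levels near background. The part of the marker lists in the result was not tested.

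Since the FAP comparison and the comparison of the controls share the FAP-TK control tumours, the low values in these 3 tumours enter both. The mean of the 9 genes was 6.54, 6.93 and 8.15 in the FAP-TK controls, against 8.82 to 11.15 in the aSMA-TK controls and 8.28 to 10.02 in the FAP depleted tumours. Between the depleted groups the picture was mixed. The tumours labelled aSMA depleted were higher than the FAP depleted tumours for 7 of 9 genes (55.2% of all genes above 0), by a median of 0.76, and with values as deposited for 5 of 9, by a median of 0.11. Cela2a, at 2.63 ± 0.96, was the only one separated, where 18.2% of all genes were, and Zg16 was at 2.28 ± 1.01. Neither passed (adjusted p = 0.133 and 0.198), none of the 9 was among the 5.18% of genes called, and at an unadjusted p under 0.05 the count was 2 of 9, these same genes, against 24.6% of all genes. Without replicate 1 of the tumours labelled aSMA depleted the adjusted p was 0.0481 for Cela2a and 0.0171 for Zg16, and the median was 3.06. Cela2a also passed limma's test with array weights (2.74, adjusted p = 0.0487). Goblet markers were higher in the tumours labelled aSMA depleted for 5 of 5 (median 1.79), islet markers for 7 of 7 (1.79, 1 called), fibroblast markers for 9 of 9 (1.59) and leukocyte markers for 8 of 8 (1.02), and their part in the result was not tested.

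Over the 12 tumours the 36 pairs had a median Pearson correlation of 0.77 (Spearman 0.69), given as a description because the tumours share 4 groups and the arrays share their normalization. Cpa1 and Cel correlated at 0.98, Pnliprp1 and Cel at 0.96, and Cpa1 and Pnliprp1 at 0.94. With each group's mean removed the median over pairs was 0.81. For every gene but Pnliprp2 the SD was largest in the tumours labelled aSMA depleted. For Cpa1 it was 5.68 there, against 1.24 (FAP depleted), 1.39 (FAP-TK control) and 2.20 (aSMA-TK control). The value of 0.81 therefore leans on that group, and covariation within each of the other groups was not tested. Pnliprp2 had the weakest ties, with a median of 0.50 to the other 8 genes and 0.26 to Cela1, and it correlated with Pnliprp1, on the same chromosome, at 0.52. Zg16 followed at 0.67. The genes most like Pnliprp2, looked up after its values were seen, were Ddrgk1, Tspan8, Fam241b, Serpinb1c and Serpinb1-ps1, at 0.93 to 0.95. These 5 correlated with Pnliprp1 at only 0.44 to 0.64.

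**Figure D4:**
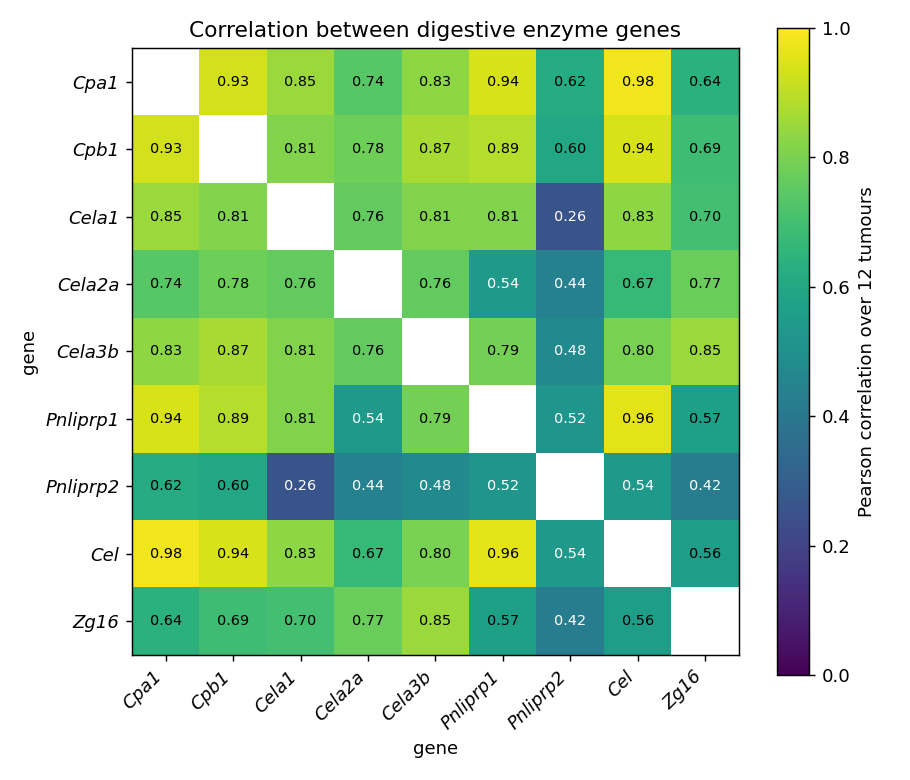
Pearson correlation over 12 tumours (colour scale and numbers) between each pair of the 9 genes. Cpa1, Cpb1, Pnliprp1 and Cel form a block between 0.89 and 0.98, and Pnliprp2 lies at 0.26 to 0.62 with every other gene.

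The genes most like the 9 were looked up by correlation. Among 11492 named genes of above-median level, those of highest correlation with the mean of the 9 genes, each scaled to the same spread, were Try4 (0.98), Try5 (0.95), Clps (0.95), Cela3a (0.95), Rnase1 (0.94), Reg3d (0.94), Amy2-ps1 (0.93), Prss1 (0.92), Prss2 (0.91) and Serpini2 (0.90). Trypsinogens (Try4, Try5, Prss1 and Prss2), the lipase cofactor colipase (Clps) and pancreatic ribonuclease (Rnase1) are secreted with the measured enzymes. Mouse trypsinogen and amylase genes are near-identical copies, so probe sets may read more than 1 of them. The least alike were Rassf4 (-0.89), Ints8 (-0.88), Mob4, Hnrnpa2b1 and Zfp944 (-0.86 each).

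Of 15 other secreted pancreatic enzymes measured, 15 had a higher mean in the FAP depleted tumours than in the FAP-TK controls (median 0.87), and 9 had a higher mean in the tumours labelled aSMA depleted than in the aSMA-TK controls (median 0.38). None passed in either comparison, in which 0 of all genes did. The 4 of highest mean level were Ctrb1, Amy2b, Clps and Prss2. Amylase 2b (Amy2b) was at 16.17, 14.36 and 16.29 in the FAP depleted tumours and at 11.98, 9.00 and 15.48 in the FAP-TK controls (3.46 ± 2.48). In the aSMA line it was at 7.83, 16.87 and 18.05 in the tumours labelled aSMA depleted and at 14.54, 12.33 and 14.68 in the aSMA-TK controls. As for Cpa1, labelled replicate 1 was the lowest of all 12. Prss2 differed by 3.34 ± 2.18 in the FAP line and -1.97 ± 2.18 in the aSMA line, and Clps by 1.95 ± 2.31 and 0.08 ± 2.31. Chymotrypsinogen B1 (Ctrb1) was near the upper end of the scale, at 19.86 or 19.87 in all 3 aSMA-TK controls and in labelled replicates 2 and 3, but at 12.62 in labelled replicate 1. Differences at that end are compressed.

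Genes of the zymogen granule and of secretion had smaller median differences, but most of their probe sets were dim. Of 14 measured, 13 had a higher mean in the FAP depleted tumours (median 0.22) and 8 in the tumours labelled aSMA depleted (median 0.11), and none passed. Cuzd1, Serpini2, Spink1, Rab3d, Rab27b, Chrm3, Aqp12, Tmed6, Erp27 and Pdia2 were above the 95th percentile of the negative controls on 0 of 12 arrays. The smaller medians are therefore not read as a smaller change than in the enzyme genes. Syncollin (Sycn), a protein of the granule membrane, was at 9.24, 9.17 and 10.65 in the FAP depleted tumours and at 4.92, 7.60 and 6.60 in the FAP-TK controls, without overlap (3.32 ± 1.50). Gp2, the main glycoprotein of the granule membrane, differed by 0.60 ± 1.96 in the FAP line and -1.92 ± 1.96 in the aSMA line. The SNARE gene Vamp8 differed by 0.24 ± 0.23 and -0.45 ± 0.23, and Dmbt1 was at 19.84 to 19.87 in all 12 tumours, the upper end of the scale. Between the control groups 2 of the 14 passed, where 7.80% of all genes were called. The muscarinic receptor gene Chrm3 was at 6.21, 5.89 and 6.36 in the aSMA-TK controls and at 5.45, 5.32 and 5.56 in the FAP-TK controls (0.71 ± 0.14, adjusted p = 0.0223, limma). Its probe set and that of Erp27 were above the 95th percentile of the negative controls on 0 of 12 arrays. Erp27, a chaperone of the endoplasmic reticulum, was higher by 0.63 ± 0.13 (adjusted p = 0.0252). Chrm3 also passed between the tumours labelled aSMA depleted and the FAP depleted tumours (0.76 ± 0.14, adjusted p = 0.0218). These calls depended on the scaling. With values as deposited the control differences were -0.12 for Chrm3 and -0.09 for Erp27, and the depleted difference of Chrm3 was 0.03 (adjusted p = 0.899). Over the 19 alternatives run, Chrm3 kept its call in 11 between controls and in 12 between depleted groups, and Erp27 in 12.

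Of the transcription factors that maintain acinar identity, with differences of -0.10 to 0.77 in the FAP line, 6 were measured. Of these 5 had a higher mean in the FAP depleted tumours (median 0.21) and 4 in the tumours labelled aSMA depleted (median 0.06). None passed in any comparison. Ptf1a and Bhlha15 were above the 95th percentile of the negative controls on 0 of 12 arrays and Gata6 on 9, so the counts include levels near background. Nr5a2 was at 8.12, 8.71 and 8.48 in the FAP depleted tumours and at 7.85, 6.85 and 8.31 in the FAP-TK controls, which overlapped (0.77 ± 0.37). In the aSMA line it was at 8.03, 8.89 and 8.98 in the labelled tumours and at 8.77, 8.42 and 8.71 in the aSMA-TK controls. The Nr5a2 probe set was above the 95th percentile of the negative controls on only 1 of 12 arrays, so this order is not read. Rbpjl, the acinar subunit of PTF1, was at 4.26, 5.64 and 6.02 in the labelled tumours and at 4.81, 4.56 and 5.68 in the controls. Its probe set was above the 95th percentile of the negative controls on 0 of 12 arrays, as was that of Gata4, so the order of these values is not read. Gata4 differed by 0.23 ± 0.37 in the FAP line and -0.36 ± 0.37 in the aSMA line, and Gata6 by 0.50 ± 0.29 and 0.43 ± 0.29.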

How the data were processed

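Expression was measured in 12 pancreas tumours, 1 array each. The deposited file holds log2 intensities for 72688 probe sets; the scale was read from the values (1.64 to 19.93). Background correction, probe summarization and normalization before deposit are not stated in any label or header seen here. The submitters' processing notes list limma, and the labelling kit named is one for Illumina arrays although the probe set names are of Affymetrix type. The distribution of deposited values differed between arrays, so the 65956 probe sets that are not controls (6732 are) were quantile normalized. Probe sets with exactly 1 listed symbol (30604) were kept, symbols were updated through the RefSeq gene table of GRCm38.p6, and the probe set of highest mean was taken per gene, leaving 30142 genes. Each of the 9 measured genes had 1 probe set.

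Groups came from the genotype labels. One mean per group was fitted over all 12 arrays with limma 3.58.1 (R 4.3.3), moderated without trend, and p-values got a Benjamini-Hochberg adjustment across 30142 genes, with calls under 0.05. The ± values in differences are limma standard errors. Single genes were also compared by exact two-sided permutation tests. The fit was tested on simulated data. The genes, lists and tests were chosen with earlier results of these data known. The lists of other secreted enzymes, zymogen granule genes and acinar transcription factors name their 4 genes of highest mean and any gene called, and the marker lists of other cells are given as counts and levels. The most and least alike genes were the 10 highest and 5 lowest correlations over 12 tumours, clone names left out. Alternatives were other scalings, a filter on dim genes, other variance models, array weights and left-out arrays. The number of arrays limits the precision.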

Additional observations from a re-analysis of the deposited data

How the results depend on the processing

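The 9 genes were refitted under 20 alternatives, and 821 of 876 differences kept their direction and their side of the threshold. For many of these the direction was fixed in advance. Leaving out an array of a group not compared cannot change a difference between 2 groups. Nor can averaging probe sets, fitting only the compared groups, the other variance model or, for the genes kept, the dim-gene filter. The count is therefore no measure of stability. No paired analysis was possible because the labels number the mice 1 to 12 with no number shared between groups, and the replicate numbers used here follow the order of deposit and are only names. The difference of effects could not be fitted on the compared groups alone. The dim-gene filter kept 4518 genes and 6 of the 9 (not Cela2a, Cela3b and Zg16), with an aSMA median of -0.88.

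Directions turned in these cases. With array weights Cela1 was at -0.32 in the FAP comparison, 1.48 in the difference of effects and -0.00129 between controls. With them Cpa1, Pnliprp1 and Cel were at 0.33, 0.60 and 0.32 in the aSMA comparison, and Pnliprp2 at 0.42 between depleted groups. With values as deposited Cela1 was at 0.22 in the difference of effects, and Cela3b and Cel at -0.37 and -0.29 between depleted groups. Chrm3 and Erp27 were then at -0.12 and -0.09 between controls. With median centring Cela1 was at 0.43 in the difference of effects and Pnliprp2 at 0.88 between depleted groups. Without the 3 arrays of low separation Pnliprp2 was at -0.22 in the FAP comparison, and Cela3b and Cel at -0.20 and -0.72 between depleted groups. The causes were not tested.

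With 1 array left out, the FAP differences ran from -0.23 to 1.83 for Cela1. The aSMA differences ran from -3.38 to 2.07 for Cpa1, -1.39 to 2.88 for Cpb1, -0.80 to 2.15 for Cela1, -0.02 to 2.43 for Cela2a, -0.13 to 1.97 for Cela3b, -2.69 to 2.24 for Pnliprp1, -1.51 to 0.06 for Pnliprp2 and -3.07 to 1.91 for Cel. The differences of effects ran from -4.26 to 0.01 for Cpb1, -1.42 to 1.53 for Cela1, -0.42 to 2.03 for Cela2a and -0.01 to 2.18 for Zg16. Between depleted groups they ran from -1.50 to 3.94 for Cpa1, -1.22 to 3.06 for Cpb1, -0.19 to 2.76 for Cela1, -0.63 to 1.47 for Cela3b, -2.97 to 1.96 for Pnliprp1, -0.85 to 0.71 for Pnliprp2 and -1.76 to 3.22 for Cel. The median of the 9 genes ran from -3.07 to -0.01 in the difference of effects and from -0.63 to 3.06 between depleted groups.

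Counts of all genes called moved more. They were 0 in the FAP, aSMA and difference-of-effects fits, 2350 between controls and 1562 between depleted groups. With 1 array left out they ran from 0 to 4, 0 to 16, 0 to 1, 508 to 3130 and 374 to 1874 in that order. Without the 3 arrays of low separation they were 13 (FAP), 357 (controls) and 634 (depleted groups). That setting leaves 1 FAP-TK control array, which is assumed to vary like the arrays of the other groups. Between controls and between depleted groups they were 12443 and 14287 as deposited, 0 and 18 with dim genes left out, 212 and 1 on the compared groups alone, and 6658 and 4502 with array weights. Between depleted groups the count was 2478 with median centring.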
